A study of Mus musculus with 6 samples.

Results

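The clustered protocadherin genes were followed through 3 lists of open chromatin regions, 1 each for mouse embryonic stem cells (ESCs) and for 2 kinds of expanded potential stem cells, called D-EPSCs and L-EPSCs. Members were all protein-coding genes on chromosome 18 whose symbol begins with Pcdha, Pcdhb or Pcdhg in the GENCODE M1 annotation of mouse genome build mm9. The rule gave 24 of the 22367 protein-coding genes of that annotation, namely 2 Pcdha genes, 21 Pcdhb genes and 1 Pcdhg gene. These 24 genes carry 46 annotated transcript starts, 11 for Pcdha, 25 for Pcdhb and 10 for Pcdhg. The small gene numbers of the Pcdha and Pcdhg clusters reflect the annotation, which joins nearly all transcripts of a cluster under 1 gene: Pcdha11 holds 10 starts and Pcdhgc5 holds all 10 Pcdhg starts. The RefSeq gene table of a later build, used for names alone, lists 14 Pcdha, 22 Pcdhb and 22 Pcdhg genes, of which 21 of the Pcdhg genes are coding.

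Clustered protocadherins are adhesion proteins of the cell surface that are best known from neurons, where each cell makes its own combination of isoforms and uses it to tell its own branches from those of its neighbours. In the Pcdha and Pcdhg clusters, each variable exon encodes the extracellular part of 1 protein and has its own promoter, and it is joined by splicing to constant exons at the end of the cluster, whereas each Pcdhb gene is a single exon. Variable promoters are known to be chosen through DNA methylation and through loops held by CTCF and cohesin, and the C-type isoforms, which close the Pcdha and Pcdhg clusters, are known to be chosen less randomly than the others.

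Accessible chromatin was measured by ATAC-seq, in which a transposase cuts open DNA and leaves sequencing adapters at the cut. All cells were of the J1 line, from mouse strain 129SV, and each state was assayed as 2 technical replicates, for which a single peak list was deposited. ESCs grew on mouse embryonic fibroblast feeders or gelatin with serum, LIF and the 2 inhibitors CHIR99021 and PD0325901. D-EPSCs were J1 cells converted in N2B27 with KSR, LIF, CHIR99021, minocycline hydrochloride and dimethindene maleate, and L-EPSCs were converted with KSR, LIF and 6 inhibitors, namely XAV939, A-419259, SB203580, JNK inhibitor VIII, CHIR99021 and PD0325901. Per the study's methods, both kinds of EPSCs had been kept without feeders over several passages when they were assayed.

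The lists held 28965 peaks for ESCs, 50225 for D-EPSCs and 46601 for L-EPSCs on the chromosomes used, and gave a position and a width for each peak but no height. With 1 list per state, no difference between states could be set against a spread between replicates, so no test was made and no p-value is given. Shares are given with 95% Wilson intervals and ratios of peak numbers with exact intervals, and both cover counting error alone. Of 10 embryonic stem cell marker genes, 8 had a peak at a start in ESCs and 10 in each EPSC list. Of 10 neuron markers, 6, 9 and 8 had one in ESCs, D-EPSCs and L-EPSCs, and of 10 fibroblast markers 3, 7 and 4 had one. Over all coding genes the share was 52.3%, 64.2% and 61.5%, and the intervals of the neuron and fibroblast counts (from 31.3 to 83.2, 59.6 to 98.2 and 49 to 94.3, and from 10.8 to 60.3, 39.7 to 89.2 and 16.8 to 68.7) included it.

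Few members had a peak at a start. Within 1 kb of an annotated start, a peak lay at 2 of 24 members in ESCs (8.33%, interval 2.32 to 25.8), at 4 in D-EPSCs (16.7%, 6.68 to 35.9) and at 3 in L-EPSCs (12.5%, 4.34 to 31). Over all protein-coding genes the shares were 52.3% (ESC), 64.2% (D-EPSC) and 61.5% (L-EPSC), so in each list the members fell below the background with intervals that did not reach it. With a window of 2.5 kb, which reaches the peaks inside Pcdhb exons described below, the members with a peak numbered 10, 9 and 10. These were 41.7% (24.5 to 61.2), 37.5% (21.2 to 57.3) and 41.7% (24.5 to 61.2), against 55.3%, 66.9% and 64.6% of all coding genes, so at that window the interval reached the background in ESCs and stayed below it in both EPSC lists. The other 493 coding genes of chromosome 18 were at 59%, 72.6% and 69.8%. The 39 Hox genes, transcription factor genes that also stand in clusters, had a peak at 10 genes (25.6%) in ESCs, at 27 (69.2%) in D-EPSCs and at 22 (56.4%) for L-EPSCs, so the members' intervals lay below the Hox share in both EPSC lists and reached it in ESCs.

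The members with a peak in all 3 lists were Pcdha11 and Pcdhgc5, the merged genes with 10 starts each. Pcdhb3 and Pcdhb22 had a peak in D-EPSCs alone, of 209 bp and 306 bp, and Pcdhb8 in L-EPSCs alone, of 121 bp, against a narrowest peak of 118 bp in that whole list. Thus 2 members had a D-EPSC peak and no ESC peak, where 12.4% of all coding genes did, and 1 had an L-EPSC peak and no ESC peak, where 10.0% did. The remaining 19 members had no peak at a start in any list: Pcdha3, Pcdhb1, Pcdhb2, Pcdhb4 to Pcdhb7, Pcdhb9 to Pcdhb19 and Pcdhb21. With only the widest 28965 peaks of each list, which makes the lists equally long, no member had an EPSC peak while lacking any ESC peak at a start. This counts whole genes. Single starts of Pcdhgc5 kept EPSC peaks without an ESC peak, such as that of Pcdhgc4, with 468 bp (D-EPSC) and 634 bp (L-EPSC).

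Start by start, 8 of the 46 starts had a peak in ESCs (17.4%, 9.09 to 30.7), 12 in D-EPSCs (26.1%, 15.6 to 40.3) and 11 for L-EPSCs (23.9%, 13.9 to 37.9). Over the 69963 starts of coding genes the shares were 45.3%, 56.5% and 54.3%, above those intervals. For the 10 Pcdhg starts the numbers were 5, 7 and 7, for the 11 Pcdha starts 3, 2 and 2, and for the 25 Pcdhb starts 0, 3 and 2. The Pcdhb starts of D-EPSCs rest on 2 peaks and those of L-EPSCs on 1, since neighbouring starts of Pcdhb22 and of Pcdhb8 share a peak. Pcdhg starts thus had a peak more often than Pcdhb starts in every list.

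Because the annotation lacks many variable exons, the exons were also found from the genome sequence itself. Plus-strand reading frames from an ATG to a stop, of 2100 bp or more, were taken across the clusters and kept if they lay at an annotated start or resembled another cluster member, at 40% or more identity over 60% or more of their length. This gave 14 Pcdha, 22 Pcdhb and 22 Pcdhg frames, of which 40 lay at an annotated start and 18 did not. The frames are numbered within each cluster along the chromosome, and carry a gene name where the annotation gives one or where a transcript's span matched that of 1 RefSeq gene to within 3 bp. Pcdhb frames follow the Pcdhb gene numbers, and they include Pcdhb20, which GENCODE M1 lists as a pseudogene and which is therefore no member. The frames, and the windows used below around and downstream of the ATG, were chosen after the peak positions had been seen.

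**Figure D1:**
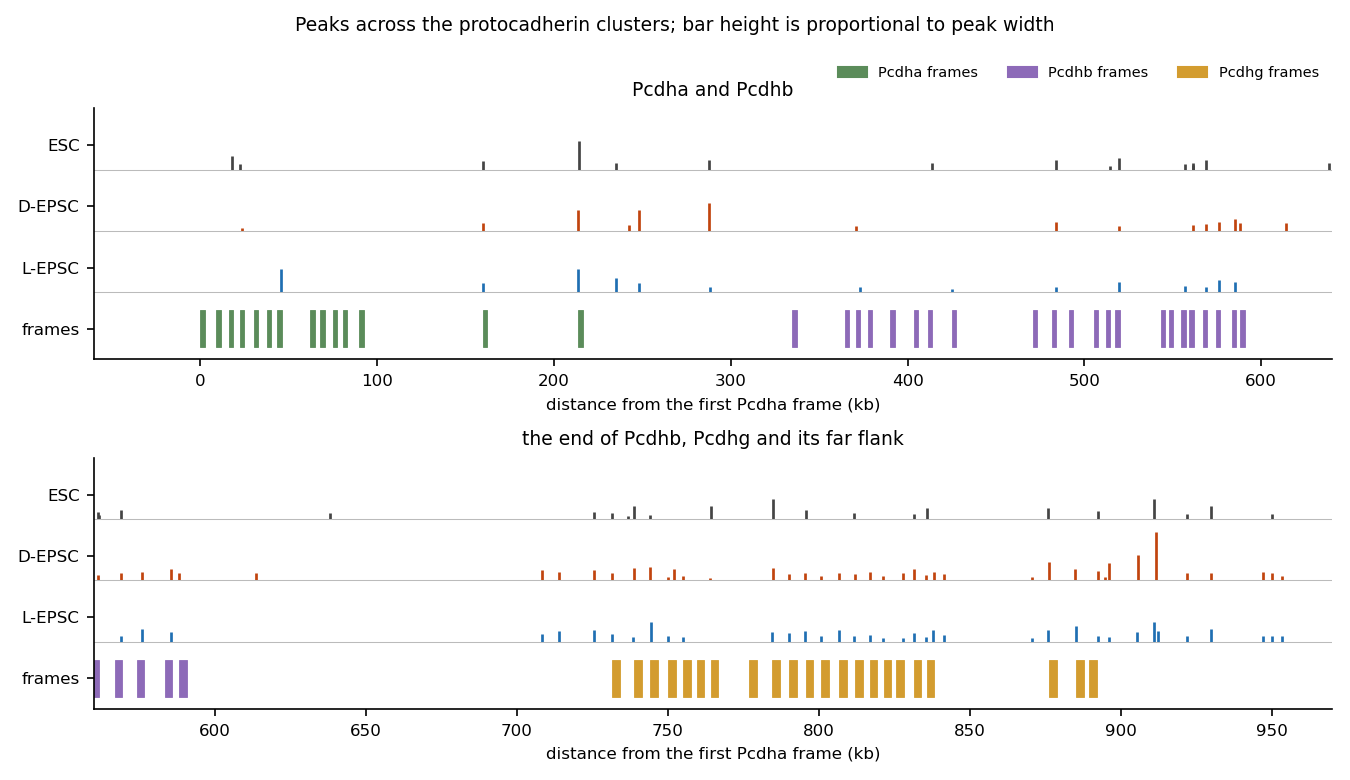
Peaks of the 3 lists along the protocadherin clusters, with distance from the first Pcdha frame in kb on the horizontal axis, 1 row per list and the reading frames below, coloured by cluster; the height of a bar is proportional to the width of the peak. Pcdha and Pcdhb have 5 and 8 peaks in every list. Pcdhg is denser, with 10 peaks (ESC), 26 (D-EPSC) and 23 (L-EPSC), counted from its first annotated start and so without frames 1 and 2.

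The 3 clusters differed in where their peaks lay. Pcdhg frames had peaks mostly at the ATG, Pcdhb frames had few there but several about 2 kb downstream, and most Pcdha frames had none at either place. A peak within 500 bp of the ATG was found for 3, 2 and 2 of 14 Pcdha frames in ESCs, D-EPSCs and L-EPSCs, for 0, 2 and 1 of 22 Pcdhb frames, and for 10, 18 and 17 of 22 Pcdhg frames. The background at annotated start codons, over 21641 coding genes, was 35.1%, 45.5% and 43.2%. The Pcdhg share was 45.5% in ESCs (26.9 to 65.3), which spans the background, 81.8% in D-EPSCs (61.5 to 92.7) and 77.3% in L-EPSCs (56.6 to 89.9), both above it. With lists of equal length the Pcdhg share was 40.9% (23.3 to 61.3) in both EPSC lists, where the background was 41.8% and 39.7%, so neither was then above it. For Pcdhb, 0 of 22 frames in ESCs allows a share of up to 14.9% (Wilson), and the D-EPSC and L-EPSC shares were 9.09% and 4.55%. The Pcdhb and Pcdhg intervals did not overlap in any list. Among 255 genes outside the clusters whose first coding exon is also at least 2100 bp long, 41, 74 and 61 had a peak at the start codon, or 16.1% (12.1 to 21.1), 29% (23.8 to 34.9) and 23.9% (19.1 to 29.5). With the full lists, the Pcdhg intervals lay above these in every list, ESCs included.

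**Figure D2:**
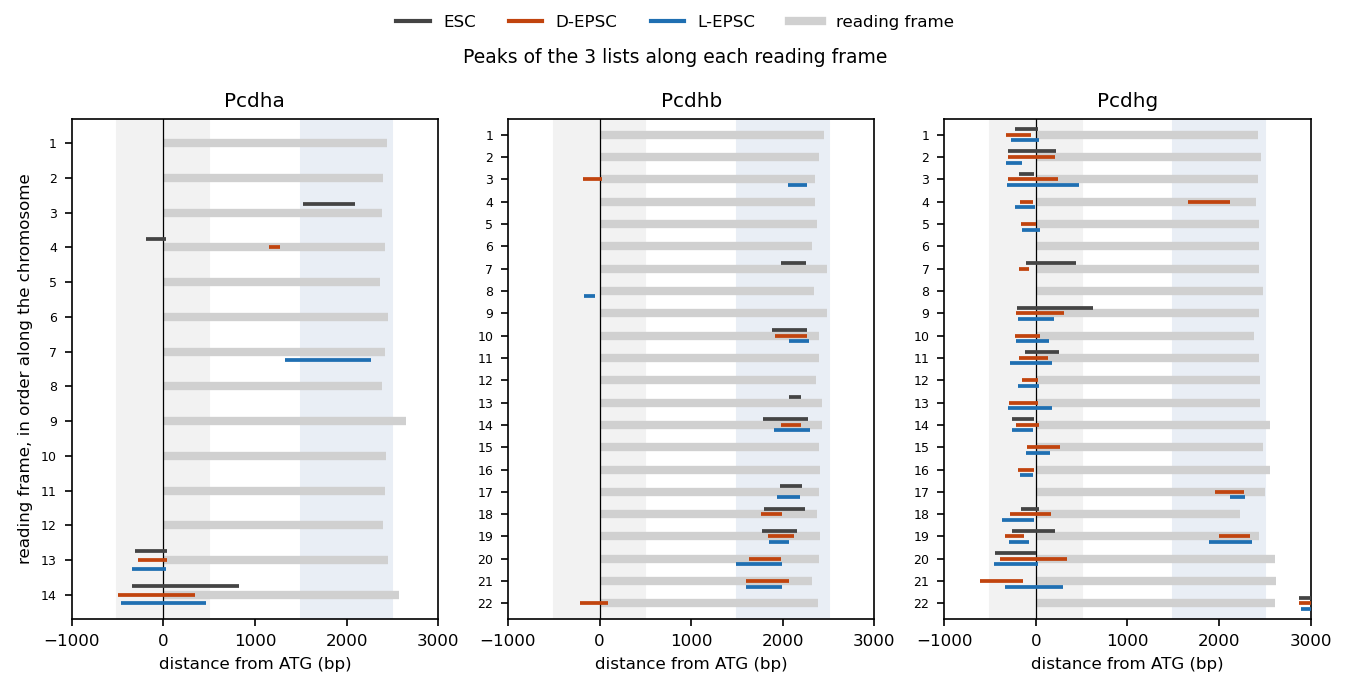
Peaks along each reading frame, with distance from the ATG in bp on the horizontal axis, 1 line of frames per row in chromosome order, a panel per cluster and a colour per list; grey bars are the frames. Pcdhg peaks gather just upstream of the ATG, whereas Pcdhb peaks gather near the end of the frame, at a median of 2082 bp (ESC), 1929 bp (D-EPSC) and 2059 bp (L-EPSC).

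Pcdhg, the cluster whose isoforms include 3 of the C-type, had the most peaks at the ATG. Of its 22 frames, 9 had a peak at the ATG in all 3 lists, 8 in both EPSC lists and not in ESCs, 1 in ESCs and D-EPSCs, and 4 in none. The 8 frames open in both EPSC lists alone are 36.4% of the cluster (19.7 to 57), where 7.69% of all coding genes showed that pattern at the start codon. With lists of equal length, 2 frames (9.09%, 2.53 to 27.8) showed it, against 5.35% of coding genes, which that interval includes. No Pcdhg frame had a peak at its ATG in ESCs alone. Peak midpoints lay close upstream of the ATG, at a median of -49.5 bp (ESC), -82 bp (D-EPSC) and -78 bp (L-EPSC).

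Among the named Pcdhg frames, Pcdhga3 (chr18:37834150-37836576, the first frame at an annotated Pcdhg start) had peaks of 168 bp (ESC), 547 bp (D-EPSC) and 791 bp (L-EPSC). Pcdhga8 had peaks of 375, 315 and 455 bp in the same order, and Pcdhgb6 had peaks of 235, 247 and 227 bp. Pcdhga12, the last frame before the C-type exons, had peaks of 474, 207 and 211 bp. Widths thus did not move one way from ESCs to EPSCs: Pcdhga3 was widest in L-EPSCs, Pcdhga12 in ESCs, and Pcdhgb6 was nearly the same in all 3 lists.

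The 3 C-type exons of Pcdhg stood next to each other and differed. Pcdhgc3 (chr18:37966202-37968814) had a peak at its ATG in every list, of 443 bp (ESC), 732 bp (D-EPSC) and 484 bp (L-EPSC). Pcdhgc4 (chr18:37975187-37977808) had none in ESCs and peaks of 468 bp (D-EPSC) and 634 bp (L-EPSC). Pcdhgc5 (chr18:37979329-37981941), the last variable exon of the cluster, had none in any list. Frames 6, 8 and 17 were the others without a peak at the ATG, and frame 17 is Pcdhga11.

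Frames 1 and 2 lie before the annotated Pcdhg gene and had peaks in all 3 lists, of 253, 283 and 312 bp at frame 1 and of 521, 519 and 171 bp at frame 2 in ESCs, D-EPSCs and L-EPSCs. Frame 9 carried the widest ESC peak of the cluster at an ATG, 825 bp, with 524 bp (D-EPSC) and 394 bp (L-EPSC). Frame 7 had 543 bp in ESCs, 117 bp in D-EPSCs, which is the narrowest width in that list, and no peak in L-EPSCs. Of the 10 Pcdhg frames with a peak in both, the ESC peak was the wider one at 5 and the D-EPSC peak at 5.

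The frames with a peak in both EPSC lists alone were 4, 5, 10, 12, 13, 15, 16 and Pcdhgc4. Their median width was 230.5 bp in D-EPSCs (range 148 to 468) and 248 bp for L-EPSCs (141 to 634), whereas at the 9 frames with a peak in every list it was 449 bp in D-EPSCs (range 207 to 732) and 353 bp for L-EPSCs (171 to 791). When each list was reduced to its widest 28965 peaks, a peak at the ATG was left for 10 (ESC), 9 (D-EPSC) and 9 (L-EPSC) Pcdhg frames. The EPSC numbers were thus not higher in lists of equal length. The narrowest peak was 128 bp in the ESC list and 309 bp and 279 bp in the reduced D-EPSC and L-EPSC lists. No read numbers accompany the peaks, so the depth behind each list is unknown and its part was not tested.

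**Figure D3:**
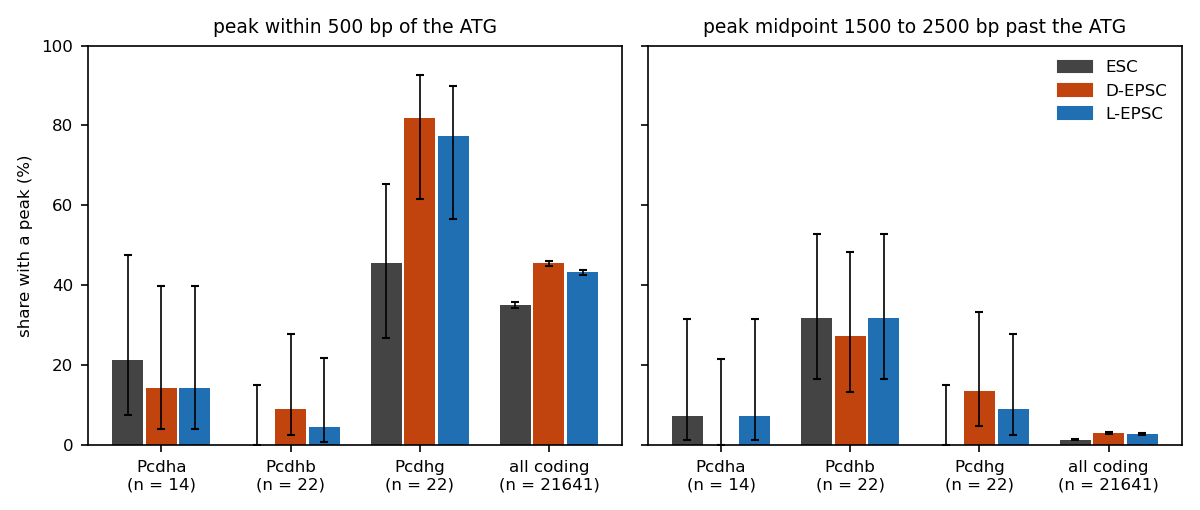
Share of features with a peak, in percent, for the 3 clusters and for coding genes as background, with a bar per list; whiskers are 95% Wilson intervals. Left, a peak within 500 bp of the ATG; right, a peak midpoint 1500 to 2500 bp downstream of the ATG. With the full lists, Pcdhg exceeds the background at the ATG in both EPSC lists, which does not hold with lists of equal length, and Pcdhb exceeds it downstream in every list.

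At Pcdhb, most peaks lay downstream of the ATG, though 12 of 22 frames had no such peak in any list. A peak midpoint fell 1500 to 2500 bp downstream of the ATG for 7 of 22 Pcdhb frames in ESCs (31.8%, 16.4 to 52.7), 6 in D-EPSCs (27.3%, 13.2 to 48.2) and 7 again for L-EPSCs (31.8%, 16.4 to 52.7). Over all coding genes the shares were 1.34%, 2.98% and 2.76%. Among the 255 genes outside the clusters with a first coding exon of similar minimum length they were 1.57% (0.612 to 3.96), 4.71% (2.71 to 8.04) and 5.1% (3 to 8.53), and the Pcdhb intervals did not overlap these. Midpoints ranged from 1931 to 2155 bp in ESCs, from 1806 to 2093 bp in D-EPSCs and from 1741 to 2182 bp in L-EPSCs. Some Pcdhg frames had a downstream peak too, 0 of 22 in ESCs, 3 in D-EPSCs (13.6%, 4.75 to 33.3) and 2 in L-EPSCs (9.09%, 2.53 to 27.8). The D-EPSC interval lay above the background and overlapped that of Pcdhb, and the L-EPSC interval included the background. These were frame 4 in D-EPSCs, and Pcdhga11 and Pcdhga12 in both EPSC lists.

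Pcdhb10, Pcdhb14 and Pcdhb19 carried this downstream peak in all 3 lists. At Pcdhb10 (chr18:37571527-37573917) it measured 389 bp (ESC), 355 bp (D-EPSC) and 219 bp (L-EPSC). At Pcdhb14 (chr18:37607461-37609884) it measured 490, 216 and 397 bp, and at Pcdhb19 (chr18:37656808-37659210) 391, 288 and 225 bp. In all 3 genes the ESC peak was the widest, and midpoints of the 3 lists lay at 2075, 2091 and 2182 bp from the ATG of Pcdhb10 and at 1965, 1981 and 1957 bp from that of Pcdhb19.

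The other downstream peaks were in 1 or 2 lists. Pcdhb18 had a pair of 273 bp and 168 bp in ESCs and one of 223 bp in D-EPSCs, and Pcdhb17 one of 237 bp in ESCs and 251 bp in L-EPSCs. Pcdhb21 had 467 bp (D-EPSC) and 394 bp (L-EPSC), and the frame of the pseudogene Pcdhb20 had 361 and 511 bp there, both without an ESC peak. Pcdhb7, with 275 bp, and Pcdhb13, with 128 bp, had one in ESCs alone, and Pcdhb3, with 210 bp, in L-EPSCs alone. Pcdhb13's width equals the smallest in the ESC list. Neither end of the cluster took part: Pcdhb1, the first gene, had no peak at the ATG or downstream in any list, and Pcdhb22, the last, had at these places only the 306 bp D-EPSC peak at its ATG. Unlike at Pcdhg, the number of downstream Pcdhb peaks was not higher in the EPSC lists, although those lists are longer. With lists of equal length, 7 (ESC), 3 (D-EPSC) and 3 (L-EPSC) Pcdhb frames had one. The share of 13.6% (4.75 to 33.3) in each EPSC list was above the background of 1.52% and 1.47% for lists of that length. With the widest 50% of each list, the D-EPSC share of 4.55% (0.807 to 21.8) was no longer above its background of 1.23%.

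Pcdha frames were mostly without peaks. The 12 frames that resemble one another, each with 74.6% to 80.1% identity to its closest relative, had 1 peak at an ATG, of 224 bp at frame 4 in ESCs. By contrast, the last 2 frames, at 44.8% and 46.8% identity, had a peak in every list. Frame 13 is Pcdhac1 (chr18:37249790-37252246), the first C-type exon of the cluster, with peaks of 352 bp (ESC), 314 bp (D-EPSC) and 379 bp (L-EPSC). Frame 14 (chr18:37303623-37306193), which lies at a start of Pcdha11 and was matched to no RefSeq name, had the widest peak at an ATG of all 58 frames in each list, with 1177 bp (ESC), 840 bp (D-EPSC) and 935 bp (L-EPSC). No start was matched to Pcdhac2. Frame 1, the first of the cluster, had no peak.

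A pair of wide peaks lay downstream within Pcdha frames. Pcdha3 (frame 3) had a 565 bp peak in ESCs with its midpoint 1806 bp past the ATG, and frame 7 had a 945 bp peak in L-EPSCs at 1800 bp. Each was in 1 list alone. At frame 4, D-EPSCs had a 130 bp peak at 1214 bp past the ATG, outside the window where ESCs had theirs.

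Across the whole stretch, with 50 kb on either side (chr18:37039939-38051527, 1012 kb), there were 32 peaks (ESC), 51 (D-EPSC) and 48 (L-EPSC). The ratio to ESCs was 1.59 for D-EPSCs (1 to 2.56) and 1.5 for L-EPSCs (0.939 to 2.42), while over the genome the lists stood at 1.73 and 1.61 times that of ESCs. Peaks covered 1.2% (ESC), 2.05% (D-EPSC) and 1.72% (L-EPSC) of the stretch. At 31.6, 50.4 and 47.5 peaks per Mb, the stretch was denser than the genome at 10.9, 18.9 and 17.6. With lists of equal length the ratios were 0.906 and 0.781.

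**Figure D4:**
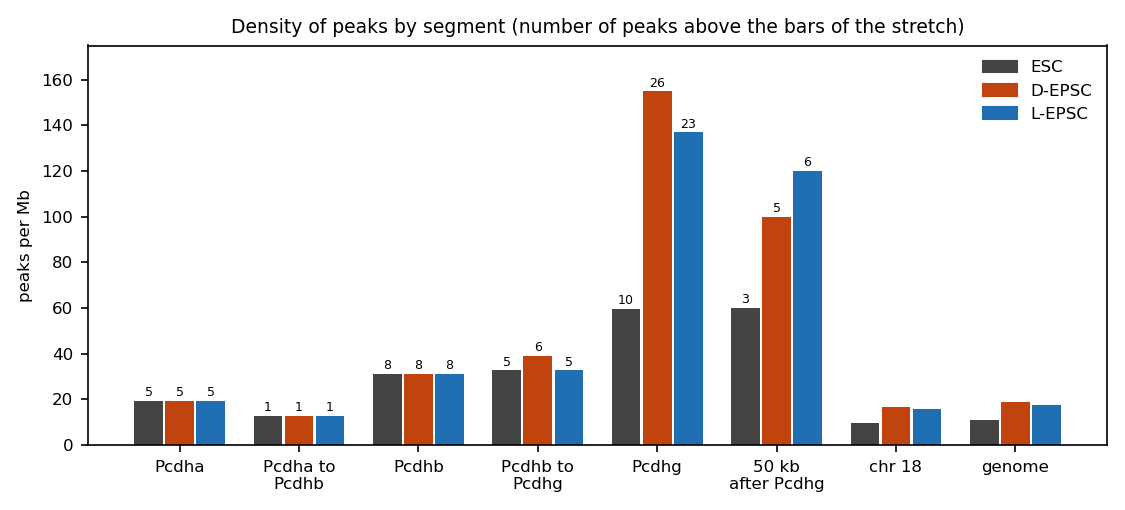
Number of peaks per Mb in each segment of the stretch, on chromosome 18 and over the genome, with a bar per list and the number of peaks above the bars of the stretch. Pcdhg rises from 59.7 peaks per Mb in ESCs to 155 (D-EPSC) and 137 (L-EPSC), while Pcdha and Pcdhb have the same number in each list. The Pcdhg segment begins at the first annotated Pcdhg start, and frames 1 and 2 fall in the segment before it.

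Most of the EPSC excess lay in Pcdhg. Its segment begins at the first annotated Pcdhg start (chr18:37833989), so frames 1 and 2 fall in the segment before it. The Pcdhg segment held 10, 26 and 23 peaks, or 2.6 times as many in D-EPSCs (1.21 to 6.04) and 2.3 times as many in L-EPSCs (1.05 to 5.41) as in ESCs. Both intervals include the ratios of the genome. Each list had 1 peak at each of frames 1 and 2, and ESCs had 1 more of 128 bp between them. The ratios would thus be lower with these frames counted in. Pcdha held 5 peaks and Pcdhb 8 in each of the 3 lists, the segment between those clusters held 1 in each, and the 50 kb before Pcdha none. Between Pcdhb and Pcdhg there were 5, 6 and 5 peaks, and in the 50 kb after Pcdhg 3, 5 and 6.

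Merging the lists gave 63 regions over the stretch. Of these, 21 were in all 3 lists (33.3%, 22.9 to 45.6), 21 in both EPSC lists alone (33.3%, the same interval) and 7 in ESCs alone (11.1%, 5.49 to 21.2). D-EPSCs alone had 7 (11.1%, 5.49 to 21.2) and L-EPSCs alone had 3 (4.76%, 1.63 to 13.1). Over the 65518 merged regions of the genome the shares in the same order were 33.2%, 18.4%, 5.12%, 22.3% and 15.8%. The intervals thus lay above the background for both EPSC lists alone and for ESCs alone, below it for each EPSC list on its own, and around it for all 3. Regions without an ESC peak were 31 of 63 (49.2%, 37.3 to 61.2), against 56.5% of the genome, which that interval includes. When regions were joined only at a reciprocal overlap of 50%, those in ESCs alone numbered 13. The regions of the genome were not joined by that rule, so this number has no background and nothing is read from it. With lists of equal length, the stretch had 49 regions. Of these, 9 were in both EPSC lists alone (18.4%, 9.98 to 31.4), against 9.03% of the genome, and 15 in ESCs alone (30.6%, 19.5 to 44.5), against 16.2%, so both intervals stayed above the background. The 10 regions in all 3 lists (20.4%, 11.5 to 33.6) then lay below the 36.7% of the genome, the 2 in L-EPSCs alone (4.08%, 1.13 to 13.7) reached its 12.1%, and the 6 in D-EPSCs alone (12.2%, 5.73 to 24.2) reached its 14.8%. In Pcdhg, counted from its first annotated start, 14 of 26 regions of the full lists were in both EPSC lists alone (53.8%, 35.5 to 71.2), 9 in all 3 and 0 in ESCs alone. That count leaves out the regions at the ATGs of frames 1 and 2, both in all 3 lists. It also leaves out a region of 128 bp between these frames (chr18:37826719-37826846), which was in ESCs alone. In Pcdhb, 3 of 14 regions were in all 3 lists, 2 in both EPSC lists alone and 3 in ESCs alone. In Pcdha, 2 of 9 were in all 3, 1 in both EPSC lists alone and 2 in ESCs alone.

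Of the 32 ESC peaks of the stretch, 13 touched the 500 bp around an ATG, 9 lay 1500 to 2500 bp downstream of one and 10 lay elsewhere. The numbers were 22, 9 and 20 for the 51 D-EPSC peaks and 20, 10 and 18 for the 48 L-EPSC peaks. The 5 widest peaks outside the start windows were all in an EPSC list. The widest, 1984 bp in D-EPSCs (chr18:38000492-38002475), overlapped the untranslated end of the constant exons of Pcdhg, where ESC peaks summed to 803 bp and L-EPSC peaks to 1205 bp. A D-EPSC peak of 1120 bp lay between Pcdha and Pcdhb (chr18:37376953-37378072), with 390 bp in ESCs and 199 bp in L-EPSCs. One of 1023 bp in D-EPSCs (chr18:37995174-37996196) lay in a Pcdhg intron, with 397 bp in L-EPSCs and none in ESCs. The L-EPSC peak of 945 bp at Pcdha frame 7 was the next, followed by a D-EPSC peak of 854 bp at the start of Gm10544, a noncoding antisense gene within Pcdha, where L-EPSCs had 374 bp and ESCs none.

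Of the 6 other coding genes with a start in the stretch, 2 (ESC), 4 (D-EPSC) and 4 (L-EPSC) had a peak at one of their starts. Taf7, which encodes a subunit of the general transcription factor TFIID, had 354 bp (D-EPSC) and 423 bp (L-EPSC), and Slc25a2, a mitochondrial carrier gene, had 434 and 314 bp, with no ESC peak at either. 3222401L13Rik had peaks of 308 bp (ESC), 435 bp (D-EPSC) and 467 bp (L-EPSC). Diap1 was counted in every list, but its starts within the stretch had peaks in ESCs (205 bp) and D-EPSCs (294 bp) only. Its L-EPSC peak lay at a start beyond the stretch. Gm6756 and Gm10545 had none in any list.

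The median width of peaks at member starts was 363.5 bp over 8 ESC peaks, 314 bp over 11 D-EPSC peaks and 466 bp over 10 L-EPSC peaks, against 501, 664 and 620 bp at all coding starts with a peak, and the 95% intervals of the members' medians (168 to 1177, 209 to 732 and 211 to 791 bp) included those values. With only the widest peak of each member, the medians were 825.5 bp (ESC), 519 bp (D-EPSC) and 791 bp (L-EPSC), over 2, 4 and 3 members. Pcdha11 and Pcdhgc5 were among them in every list, each with the widest peak of its 10 starts. The medians of all coding starts were not reduced to the widest peak of each gene, so no comparison with them is drawn. Over the whole stretch the medians were 322, 315 and 313 bp, and over all peaks of each list 369, 364 and 358 bp.

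Sequence features of the frames differed between clusters. In the 1 kb around the ATG, the median GC content was 46.8% for Pcdha, 43.6% for Pcdhb and 48.7% for Pcdhg. The observed over expected CpG ratio, a measure of how well CpG sites have been kept, was 0.726, 0.393 and 0.643 in the same order, and its part in where peaks lay was not tested. Among Pcdhg frames, those open in both EPSC lists alone and those open in all 3 had similar ratios, 0.676 and 0.63. Reads from repeated sequence cannot be placed with certainty. The share of 31-base windows found once in the genome had a median of 77.5% at the Pcdha ATGs (71.2 to 100), 100% at the Pcdhb ATGs (76.4 to 100) and 98.1% at the Pcdhg ATGs (76 to 100). At Pcdha frames 1 to 12, 49.7% of windows were unique in the first 300 bp of the frame, but 100% in the 300 bp before the ATG and 98.2% in the 300 bp before those. The part of repeated sequence in the results was not tested.

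**Figure D5:**
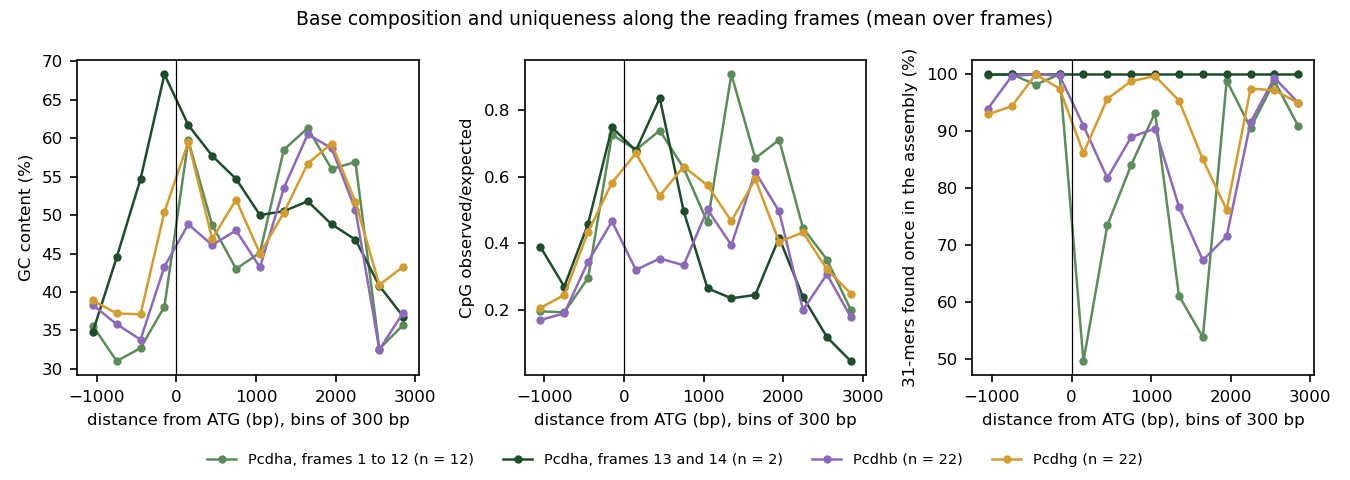
GC content, CpG observed over expected ratio and share of unique 31-base windows along the reading frames, in bins of 300 bp by distance from the ATG, as means over the frames of each group. Pcdhb rises to 60.5% GC from 1500 to 1800 bp, just ahead of the median position of its downstream peaks, where 67.4% of windows are unique, and Pcdha frames 13 and 14 have 68.3% GC just upstream of the ATG against 38.1% for frames 1 to 12.

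At the downstream sites of Pcdhb the sequence was less unique than at the ATG, with a median of 79.3% of windows (63.8 to 100). Frames with a downstream peak had a median of 75% (63.8 to 86.2) and those without one 80.8% (69.5 to 100), with ranges that overlap. The CTCF core motif CCANNAGNNGG, searched on both strands, was found on the minus strand of the downstream window in 15 of 22 Pcdhb frames (68.2%, 47.3 to 83.6) and on the plus strand in 0. In the same window of all coding genes, on the strand of the gene, it was found in 10.4% (minus) and 11% (plus), and in the 255 genes with a long first coding exon in 11.4% (8.04 to 15.9) and 12.2% (8.7 to 16.7). Pcdhb exons resemble one another, so these frames are not independent. The minus-strand match was in 8 of 10 frames with a downstream peak and in 7 of 12 without. In the 400 bp around the midpoint, 3 of 8 downstream Pcdhb peaks in ESCs, 2 of 6 for D-EPSCs and 4 of 7 for L-EPSCs held the motif, all on the minus strand. These were 37.5% (13.7 to 69.4), 33.3% (9.68 to 70) and 57.1% (25 to 84.2), where 17.2%, 17.8% and 19.2% of all peaks of each list held it on either strand, so the interval lay above that share in L-EPSCs and included it in ESCs and D-EPSCs. At the ATG, 0 of 13 ESC peaks, 0 of 22 D-EPSC peaks and 1 of 20 L-EPSC peaks did. In Pcdha, 6 of 14 ATG windows held it on the plus strand (42.9%, 21.4 to 67.4), against 11.1% over all coding genes. The 46 start windows all held the short sequence CGCT, as did 94% of all coding start windows, so that it set nothing apart. A match is a string of letters and no evidence that the factor was bound.

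Related genes outside the clusters were read in the same way. Of 12 protocadherin genes that stand alone, a peak at a start was found for 5 (ESC), 9 (D-EPSC) and 8 (L-EPSC), or 41.7% (19.3 to 68), 75% (46.8 to 91.1) and 66.7% (39.1 to 86.2). These intervals include the 52.3%, 64.2% and 61.5% of all coding genes. Pcdh1, Pcdh8, Pcdh17, Pcdh19 and Pcdh20 had one in all 3 lists, Pcdh10, Pcdh15 and Pcdh18 in both EPSC lists, Pcdh7 in D-EPSCs alone, and Pcdh9, Pcdh11x and Pcdh12 in none. Of 8 large cadherins, Celsr1, Celsr2 and Celsr3 had one in every list, Dchs1 in both EPSC lists, Fat4 in L-EPSCs alone, and Fat1, Fat2 and Fat3 in none. All 20 genes listed as acting on the clusters, on loops or on DNA methylation had a peak at a start in every list (100%, 83.9 to 100), above those shares, among them Ctcf, the cohesin subunit gene Rad21, the DNA methyltransferase gene Dnmt3b and Smchd1, which encodes a chromatin protein.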

How the data were processed

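The authors prepared ATAC-seq libraries from 2 technical replicates of each state, trimmed the reads with Trim Galore (0.6.3) and cutadapt, checked them with FastQC (0.10.1), aligned them to mm9 with Bowtie2 (2.3.5), kept mapped, properly paired reads above a minimum mapping quality with SAMtools (1.10), a filter that acts on reads from repeated sequence, and called peaks with MACS. HOMER is also named in the submitters' processing notes. How replicates were combined into the 1 deposited list per state is not given in the sources used here. The deposited values are peak positions in 4 columns, with no score, height or p-value. mm9 is a C57BL/6J genome while J1 is a 129 line, and the effect of that difference was not tested.

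Positions were read on the 19 autosomes and the sex chromosomes, and 2 peaks per list, on the mitochondrial genome, were left out. A peak counted for a start if it overlapped the 1 kb on either side. Reading frames were found on the mm9 sequence, which dropped 3 frames under the identity minimum, and unique windows were counted with k = 31. The members and gene lists were chosen with earlier results of these data known, and the frames, the 500 bp ATG window and the downstream window after the peak positions were seen. Named genes were the C-type members, the first and last gene of each cluster, members with peaks in some lists only, the 3 members with the widest peak per list, all members without a peak, and the 5 widest peaks outside start windows. Frames outside this rule, among them Pcdhga8, Pcdhgb6, Pcdhga12, Pcdhg frames 1 and 2 and the Pcdhb genes with downstream peaks, were named after their values were seen. Python 3.11.15, numpy 2.4.6, scipy 1.17.1, Biopython 1.88, numba 0.67.0, matplotlib 3.10.9 and bedtools 2.31.1 were used, and the steps were tested on simulated data. Peaks gained by a longer list and peaks gained by a state cannot be told apart without depths, so lists of equal length, the widest 50% of peaks, other windows and other overlaps were tried as alternatives.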

Additional observations from a re-analysis of the deposited data

How the results depend on the processing

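No paired analysis was possible because each state has a single pooled list, and leaving out a replicate could not be done for the same reason. Of 147 alternative values for 38 results, 103 stayed within the spread or within 1.5 times the main count and 44 moved. Of those that moved, 17 came from the widest 50% of each list, 17 from lists of equal length and 4 from frames at an annotated start. These settings leave fewer peaks or frames to count, so moves there are in part set by the setting itself. With a 2.5 kb window, members with a peak at a start were 10 (ESC), 9 (D-EPSC) and 10 (L-EPSC), and 3 had an L-EPSC but no ESC peak; with the most 5′ start alone, ESCs had 1. With each list cut to its widest 28965 peaks, D-EPSCs had 2 such members, none had an EPSC peak without an ESC peak (0 for D-EPSCs, 0 for L-EPSCs), the stretch held 29 D-EPSC and 25 L-EPSC peaks, and the ratios to ESCs were 0.906 and 0.781; regions in all 3 lists numbered 10, in both EPSC lists alone 9 and in ESCs alone 15. With the full lists and a reciprocal overlap of 50%, regions in ESCs alone numbered 13, for which no genome share was computed. With the lists of 28965 peaks, frames with a peak at the ATG were 0 and 0 for Pcdhb and 9 and 9 for Pcdhg in D-EPSCs and L-EPSCs, with 2 Pcdhg frames in both EPSC lists alone, and 3 and 3 Pcdhb frames had a downstream peak. With the widest 50% of each list, D-EPSCs had 2 members with a peak at a start, 0 and 0 members had an EPSC peak without an ESC peak, and the stretch held 14 (ESC), 17 (D-EPSC) and 22 (L-EPSC) peaks. Pcdha then had 1 frame with a peak at the ATG in ESCs and 1 in D-EPSCs, Pcdhb 0 in both EPSC lists, and Pcdhg 6, 6 and 7, with 2 in both EPSC lists alone, while Pcdhb downstream peaks numbered 3, 1 and 3. The Pcdhg shares at the ATG were 27.3% (13.2 to 48.2), 27.3% (13.2 to 48.2) and 31.8% (16.4 to 52.7). Over coding genes they were 26.2%, 40% and 37.2%. The 2 Pcdhg frames in both EPSC lists alone were 9.09% (2.53 to 27.8), against 10.6% of coding genes. Each of these Pcdhg intervals included its background. With only frames at an annotated start, Pcdhg had 5, 7 and 7, and 2 in both EPSC lists alone. That setting keeps fewer than the 22 Pcdhg frames behind the main counts of 10, 18 and 17, so the counts are not out of the same number. Of the Pcdhg frames kept, Pcdhga11 and Pcdhgc5 alone had no EPSC peak at the ATG. The reductions keep peaks by width, since the lists give no height, so the cause of these shifts was not tested. No depth is known for any list.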
